A study of Mus musculus with 8 samples.

Results

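Tk1, Afmid, Birc5 and Socs3 lie side by side on mouse chromosome 11, between positions 117815526 and 117970047, and their promoters were followed here through 4 lists of chromatin loops. The loops came from Hi-ChIP, in which DNA ends that lie close in the nucleus are ligated and the fragments bound by a chosen protein are then pulled down. A loop is a pair of genomic intervals, its anchors, joined by more read pairs than the caller took as background. A loop was assigned to these genes when an anchor lay within 2 kb of an annotated start of any of them. This gave 6 anchors of 30542, and 381 distinct loops of the 249200 in the 4 lists combined. For FOXA1 the liver mets list held 232 of them among 125623 loops and the tumor list 148 among 104136, and for HNF4G the liver mets list held 118 among 78098 and the tumor list 141 among 76323. The members were selected on the number of loops at the anchor shared by Tk1 and Afmid, which was the highest of the FOXA1 liver mets list, so loop numbers at these genes are given as a description and were not tested. The farthest anchor inside the limit lay 1784 bp from a Birc5 start and had 20 FOXA1 liver mets loops, and the nearest outside it lay 4150 bp away and had 43.

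Both cell lines were mouse pancreatic cancer cells from the KPC model, labelled WT and Untreated and grown in DMEM with 10% FBS. The tumor groups came from a primary tumor cell line and the liver mets groups from the matched liver metastasis line. FOXA1 and HNF4G were each pulled down in both lines, with 2 replicates per group and 8 samples in all, but each group had 1 loop list that covered its replicates. No spread between replicates could therefore be calculated, each line stands for its stage without a second line, and depth was not analysed here. No expression was measured in these files, so the cell type was not checked against marker genes.

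FOXA1 is described as a pioneer factor that opens chromatin at enhancers of endodermal tissues, and HNF4G is a nuclear receptor that binds DNA through its own motif. For primary pancreatic cancer, the authors propose that FOXA1 does not act as a pioneer. In metastasis they propose that FOXA1 becomes active, and they report more FOXA1 looping between enhancers and promoters in the metastasis line. For HNF4G they report more long-range looping in the primary tumor line. Promoters with many listed partners are often called hubs, and their contacts can reach enhancers as well as other promoters. Tk1 encodes the cytosolic thymidine kinase of the salvage route to dTTP, Afmid encodes arylformamidase of the kynurenine pathway, Birc5 encodes survivin, a member of the chromosomal passenger complex and an inhibitor of apoptosis, and Socs3 encodes a feedback inhibitor of cytokine signaling through JAK and STAT proteins.

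The Tk1 and Afmid promoters face away from each other and share an anchor. In the mm10 (GRCm38) assembly and the GENCODE M21 annotation, Tk1 (ENSMUSG00000025574.13) occupies positions 117815526 to 117826092 of chromosome 11 on the minus strand, and Afmid (ENSMUSG00000017718.15) positions 117825924 to 117839908 on the plus strand. The shared anchor at chr11:117821995-117831811 was 9.82 kb wide, wider than 99.64% of all anchors, against a median anchor width of 2335 bp. It contained 27 GATC sites, at which DpnII cuts, or 2.75 per kb, against 1.56 per kb over all anchors. The 172 bases upstream of the outermost Tk1 start, 117826092, that no annotated untranslated region covers are given from GRCm38.p6 of RefSeq. They lie inside the anchor and inside the Afmid gene, and are printed 5′ to 3′ on the minus strand at chr11:117826093-117826264.
Tk1 promoter: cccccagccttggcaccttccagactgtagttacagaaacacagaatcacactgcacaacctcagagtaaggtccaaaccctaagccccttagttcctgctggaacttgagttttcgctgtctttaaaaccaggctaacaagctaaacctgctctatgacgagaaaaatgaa
None of the 7 motifs searched on both strands (TTTGGCGC and TTTCCCGC for E2F factors, TTTGAA for the CHR element of cell cycle genes, CCAAT, TTCNNNGAA for STAT proteins, TGTTTAC for FOXA1 and CAAAGTCCA for HNF4 factors) occurred in the 300-base promoter windows of Tk1, Afmid or Birc5. Over all 32851 promoter windows of that length, the shares with a match were 0.514%, 1.07%, 17.9%, 37.4%, 8.30%, 3.65% and 0.475% in the same order. Each window was placed at a single RefSeq start. The annotated Tk1 starts from 117825817 to 117825867 and the Socs3 start at 117969186 lie downstream of these windows. Sequence around those starts was not searched for E2F, CHR, CCAAT or STAT motifs, so a missing match does not describe them.

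The shared Tk1 and Afmid anchor had 80 loops in liver mets and 49 in tumor for FOXA1, and 34 in liver mets and 46 in tumor for HNF4G. Among all anchors it ranked first in liver mets and 16th in tumor for FOXA1, and 35th and 12th for HNF4G. The FOXA1 number was 1.63 times as high in liver mets as in tumor, and the HNF4G number was 0.739 times as high, so the lines were ordered oppositely for the 2 factors. Per loop of the whole lists, these ratios came to 1.35 and 0.722. Width moved with loop numbers: the 162 anchors of 8 to 10 kb had a median of 25 loops in FOXA1 liver mets and 20 in FOXA1 tumor, while anchors of 2 to 4 kb had medians of 7 and 5. Per kb, the shared anchor had 8.15 loops in FOXA1 liver mets, fewer than the 9.08 of the wider Birc5 anchor.

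The Socs3 anchor was the nearest in loop numbers among the members. Socs3 (ENSMUSG00000053113.3) lies on the minus strand at positions 117966079 to 117970047, inside an anchor of 8700 bp at chr11:117962160-117970859. It had 71 loops in liver mets and 41 in tumor for FOXA1, and 38 in liver mets and 49 in tumor for HNF4G. Liver mets thus had 1.73 times the tumor number for FOXA1 and 0.776 times for HNF4G, or 1.44 and 0.758 relative to list size. It ranked 4th in liver mets and 40th in tumor for FOXA1, and 15th and 7th for HNF4G. Its promoter window was the only 1 of the 4 with a match to any motif searched, a STAT match that starts 154 bases before the RefSeq start. The 250 bases before that start are given with the match in capitals, from the minus strand at chr11:117969367-117969616.
Socs3 promoter: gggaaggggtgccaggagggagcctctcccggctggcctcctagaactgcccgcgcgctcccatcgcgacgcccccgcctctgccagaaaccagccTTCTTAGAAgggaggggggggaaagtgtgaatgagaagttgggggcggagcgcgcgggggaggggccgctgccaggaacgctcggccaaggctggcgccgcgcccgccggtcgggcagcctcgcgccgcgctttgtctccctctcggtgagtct

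Birc5 had fewer loops and smaller differences. Birc5 (ENSMUSG00000017716.15) lies on the plus strand at positions 117849251 to 117855743, and anchors of 1671 bp at chr11:117845797-117847467 and 2642 bp at chr11:117848416-117851057 were within 2 kb of its starts. Together they had 44 loops in liver mets and 36 in tumor for FOXA1, against 24 and 25 for HNF4G. The FOXA1 ratio of 1.22 was close to the ratio of 1.21 between the sizes of the lists, and the HNF4G ratio was 0.96. The 2 further anchors next to internal starts of Tk1, of 3389 and 2999 bp, together had 48 and 32 FOXA1 loops in liver mets and tumor, and 32 and 29 HNF4G loops. The first of them also lay within 2 kb of a start of Syngr2, a vesicle membrane protein.

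**Figure D1:**
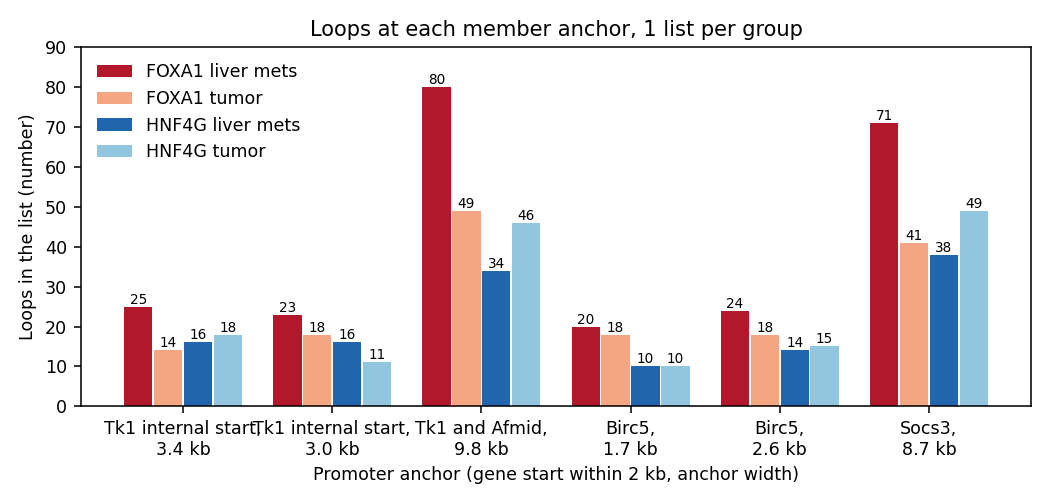
Number of loops (y axis) at each of the 6 member anchors (x axis, with the anchor width in kb) in the 4 lists, 1 bar per list and no error bars because each group had 1 list. FOXA1 liver mets is highest at every anchor, with 80 loops at Tk1 and Afmid and 71 at Socs3, and the HNF4G order at these 2 anchors is tumor above liver mets.

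Across all protein-coding genes with at least 10 loops over the compared lists, 25.4% of 6862 genes had at least 1.5 times as many FOXA1 loops in liver mets as in tumor and 8.61% had at least 1.5 times fewer. Tk1 with all 3 of its anchors (126 against 79 loops, ratio 1.59), Afmid and Socs3 passed the first limit and no member passed the second. Since Tk1 and Afmid share an anchor and the choice of these genes used that number, nothing is read from this count. For HNF4G, 15.6% of 5425 genes were at least 1.5 times higher in liver mets and 19.4% at least 1.5 times lower, and none of the 4 members passed either limit.

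The loops of the shared Tk1 and Afmid anchor reached farthest in FOXA1 liver mets. The median span, measured between anchor midpoints, was 519 kb in liver mets and 258 kb in tumor for FOXA1, and 199 and 223 kb for HNF4G. The HNF4G order turned without the loops under 20 kb, to 501 kb in liver mets and 292 kb in tumor, since the liver mets list had 2 loops of 200 to 500 kb and 12 of 500 to 1000 kb. Over all loops of these lists the medians were 164 and 141 kb for FOXA1 and 114 and 131 kb for HNF4G. Loops under 20 kb numbered 5 in every list. Loops of 1 Mb or more numbered 24 in liver mets and 6 in tumor for FOXA1, and 3 and 9 for HNF4G. The 24 were out of 80 loops, whereas such loops made up 9.58% of the whole FOXA1 liver mets list.

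These longest loops mostly shared a single value per list. Each loop carried a value, read here as the −log10 of an adjusted p, and many loops of a list had exactly the same value: 1.87 and 1.91 in the liver mets and tumor lists of FOXA1, and 1.99 in both HNF4G lists. All 24, 6, 3 and 9 loops of 1 Mb or more at the shared anchor stood at this tied value, as did 96.6% to 98.4% of such loops in the whole lists. Without the tied loops the median span was 260 kb in liver mets and 215 kb in tumor for FOXA1, and 168 and 160 kb for HNF4G. The FOXA1 medians were then closer, but removing loops at a value held by nearly all of the longest loops acts much like a cut by span. Whether tied loops were weaker was not tested. A lower value was also common in liver mets and tumor, 0.0889 and 0.123 for FOXA1 and 0.146 and 0.171 for HNF4G, and its loops were kept. Without the tied loops the anchor had 55 and 39 FOXA1 loops, a ratio of 1.41, and 28 and 33 HNF4G loops.

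**Figure D2:**
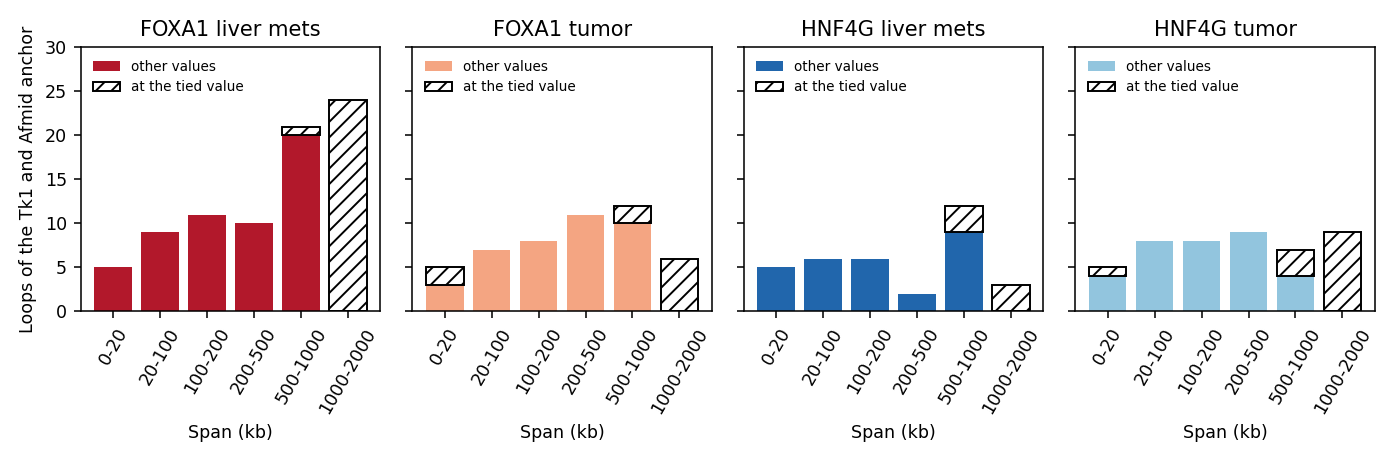
Number of loops of the Tk1 and Afmid anchor (y axis) by span in kb (x axis) in each list, with loops at the tied value of the list hatched and all others filled. All 24 loops of 1000 to 2000 kb in FOXA1 liver mets are hatched, while 20 of its 21 loops of 500 to 1000 kb had other values, against 10 of 12 in FOXA1 tumor. Over the whole lists, 34.7% of FOXA1 liver mets loops and 59.8% of FOXA1 tumor loops of 500 to 1000 kb were at the tied value.

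Among loops at other values, the FOXA1 lists differed most between 500 and 1000 kb, with 20 in liver mets and 10 in tumor. Below 20 kb these numbers were 5 and 3, and between 20 and 100 kb they were 9 and 7. Between 100 and 200 kb they were 11 and 8, and between 200 and 500 kb 10 and 11. The whole FOXA1 lists had 10673 loops at other values between 500 and 1000 kb in liver mets and 4765 in tumor. A gap in this range was thus not particular to this anchor. With tied loops, FOXA1 liver mets had 21 loops of 500 to 1000 kb and FOXA1 tumor 12, of which 11 and 3 had a value of at least 2, a limit above the tied values of all lists. On the side of lower coordinates, which holds the septin gene Sept9 and the host gene Snhg20, these lists had 13 and 10 loops in this range. On the side of higher coordinates, which holds Timp2, Cant1 and Lgals3bp, they had 8 and 2, with 4 and 0 at a value of at least 2. The HNF4G lists had 2 loops there in liver mets and 0 in tumor.

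Socs3 had many of its additional FOXA1 loops at shorter distances than Tk1 and Afmid, each measured from its own anchor. Its median span was 380 kb in liver mets and 156 kb in tumor for FOXA1, and 149 and 311 kb for HNF4G. Between 200 and 500 kb it had 18 and 5 FOXA1 loops in liver mets and tumor, and 8 and 7 HNF4G loops, and none of these were at a tied value. Of the 18, 14 lay toward higher coordinates, against 5 of 5 in FOXA1 tumor. The shared Tk1 and Afmid anchor had 10 and 11 FOXA1 loops in liver mets and tumor in that range. These anchors lie 140 kb apart, so the same partner can fall in different ranges. In FOXA1 liver mets, the anchor next to Timp2 was joined to both, 397 kb from Socs3 and 536 kb from the shared anchor. A promoter anchor of Cep295nl was likewise 380 and 520 kb away. The additional loops were therefore not shown to reach different regions. Without tied loops, the Socs3 medians were 217, 122, 131 and 140 kb.

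Birc5 showed no such gap in reach. Its loops had a median span of 146 kb in liver mets and 144 kb in tumor for FOXA1, and 97.5 and 89.3 kb for HNF4G. Only 2 of its FOXA1 liver mets loops and 0 of its FOXA1 tumor loops had a value of at least 2, against 24 and 14 for the shared Tk1 and Afmid anchor and 23 and 9 for Socs3.

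The neighborhood offered many possible partners. Within 2 Mb of the shared anchor lay 223 other anchors, more than around 99.4% of all anchors, where the median was 74. Of these, 35.9% in liver mets and 22.0% in tumor were listed as its partner for FOXA1, and 15.2% and 20.6% for HNF4G. Of all anchor pairs of chromosome 11 within that distance, 9.48% and 7.95% were listed for FOXA1 and 6.06% and 6.49% for HNF4G. Between 100 and 200 kb, 11 of 11 possible partners were listed in liver mets and 8 in tumor for FOXA1, and 6 and 8 for HNF4G. Between 1 and 2 Mb, 24 of 122 were listed in FOXA1 liver mets (19.7%) and 4.92%, 2.46% and 7.38% in the others. Each list used 222 or 223 of these anchors in some loop, so nearly the same anchors were present in all lists while the joined pairs differed. How strongly each factor bound these anchors was not analysed here. Around Socs3, 32.7% of 217 possible partners were listed in FOXA1 liver mets and 18.9%, 17.5% and 22.6% in the others.

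**Figure D3:**
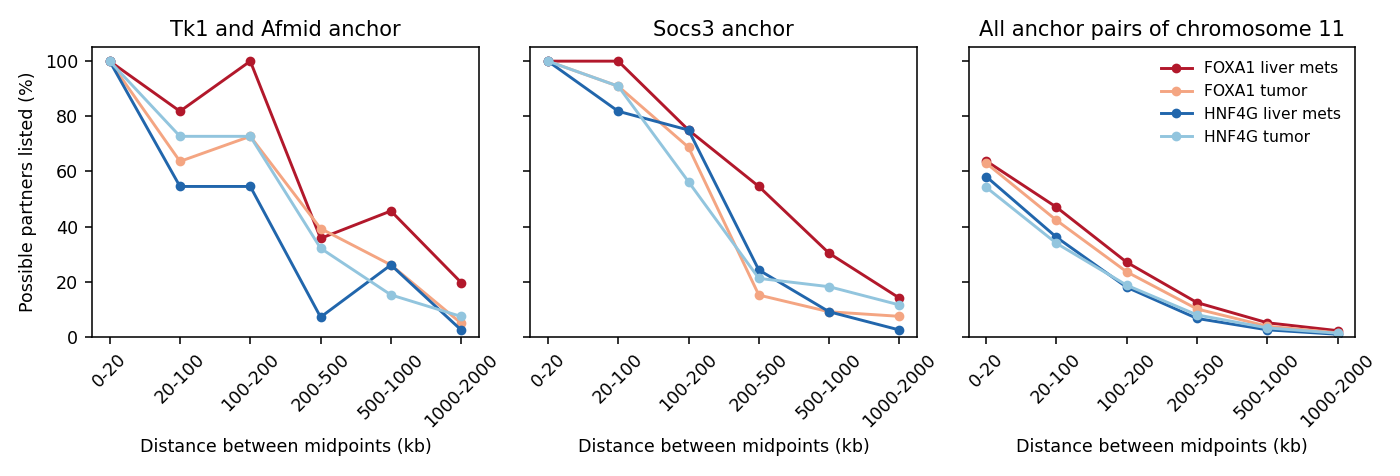
Share of possible partner anchors that were listed (y axis, percent) by distance between midpoints (x axis, kb) for the Tk1 and Afmid anchor, the Socs3 anchor and all anchor pairs of chromosome 11, with 1 line per list. All 4 lists are at 100% below 20 kb for both members, and at 200 to 500 kb FOXA1 liver mets stands at 54.5% for Socs3 but at 35.7% for Tk1 and Afmid, below the 39.3% of FOXA1 tumor.

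Over the 4 lists the shared anchor had 111 distinct partners, of which 14 were in all 4 lists. This is 12.6%, against 5.28% of all loops. FOXA1 liver mets and FOXA1 tumor shared 33 partners, which are 41.2% of the 80 (Wilson 95% interval 31.1% to 52.2%, for counting error only) and 67.3% of the 49 (53.4% to 78.8%), while 34.0% and 41.1% of all loops of these lists were shared. Partners in all 4 lists lay near, with a median span of 40.6 kb and none beyond 215 kb. Of the 111 partners, 32 were in FOXA1 liver mets and no other list, as were 60805 of the 249200 distinct loops overall in the 4 lists. These 32 had a median span of 1289 kb, and 18 of them were at the tied value. Of the 32, 17 were promoter anchors, 6 overlapped exons, 3 lay in introns and 6 lay outside genes.

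**Figure D4:**
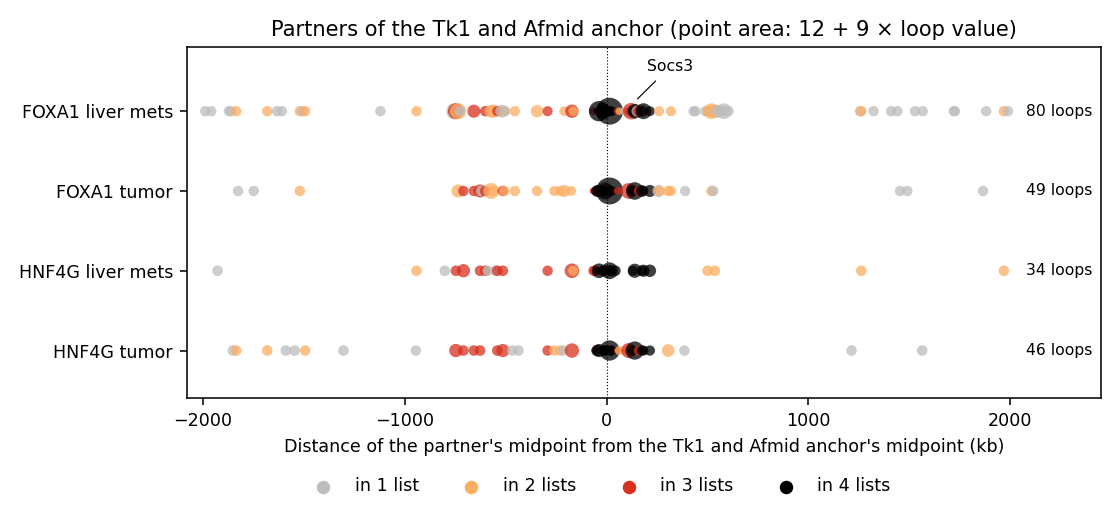
Partners of the Tk1 and Afmid anchor by signed distance between midpoints (x axis, kb) in each list (rows), with point area set to 12 plus 9 times the loop value and color giving the number of lists that hold the loop. Loops in 4 lists (black) sit within 215 kb of the anchor, and the grey loops of 1 list reach almost 2000 kb on either side in FOXA1 liver mets.

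The strongest partner of the shared anchor was the same in every list. It was an anchor of 7187 bp at chr11:117837915-117845101 that overlaps exons at the far end of Afmid, 14.6 kb away, with a value of 20 in both FOXA1 lists and values of 7.01 and 10.7 in the HNF4G liver mets and tumor lists. A value of 20 is the ceiling of the lists, so the FOXA1 values cannot be ranked. The loop to the promoter anchor of Tmc8, a membrane protein of the TMC family, spanned 37.3 kb and had values of 10.8 and 3.18 in the FOXA1 liver mets and tumor lists and up to 5 in the HNF4G lists. The 2 anchors at Pgs1, which encodes phosphatidylglycerophosphate synthase, lay 175 and 183 kb away and were joined in all lists, the farther with values of 6.16 and 1.56 in liver mets and tumor for FOXA1 and 3.03 and 1.7 for HNF4G. A loop to a promoter anchor of Tnrc6c, a gene of microRNA silencing, spanned 172 kb, was missing from the FOXA1 tumor list and had values of 3.99 in FOXA1 liver mets and, for HNF4G, 4.97 in liver mets and 4.74 in tumor. An interval of 4852 bp without genes, 122 kb away toward Socs3, stood at 6.74 and 1.2 in the FOXA1 liver mets and tumor lists and at 2.42 in HNF4G tumor, whereas a wider interval 109 kb away had 0.984 and 5.96 in the FOXA1 lists and 5.26 in HNF4G tumor. The order of the FOXA1 values was thus opposite at these neighboring intervals, and neither was in the HNF4G liver mets list. The farthest partner in all lists was an exonic anchor of Dnah17, a dynein heavy chain gene, at 215 kb with values of 1.51 and 2.98 in liver mets and tumor for FOXA1 and 3.23 and 1.77 for HNF4G.

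**Figure D5:**
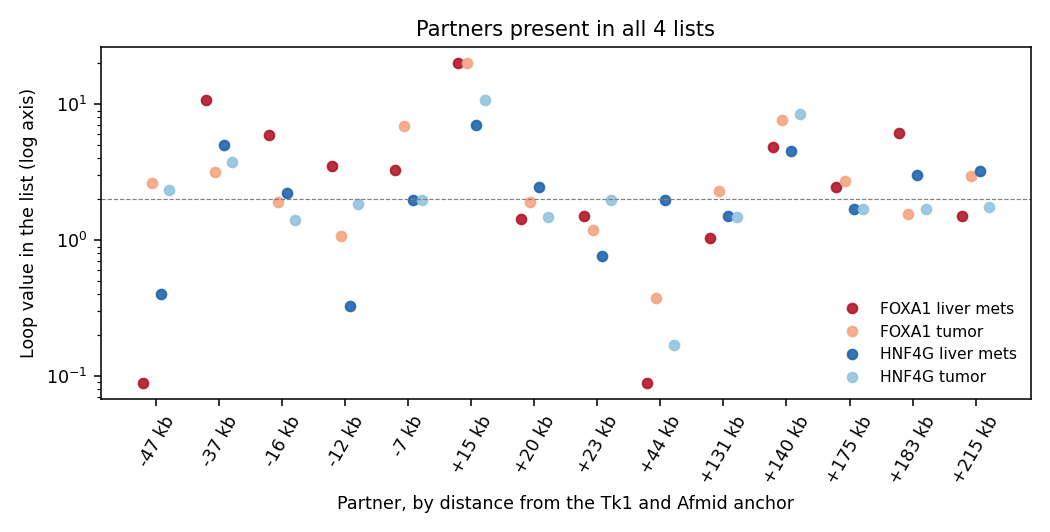
Loop value (y axis, log axis) of the 14 partners of the Tk1 and Afmid anchor that were in all 4 lists, by distance from the anchor (x axis), with 1 point per list and a dashed line at a value of 2. FOXA1 liver mets is above FOXA1 tumor at 5 partners and below at 8, both are at the ceiling of 20 at 1, and the loop to Socs3 at +140 kb is above 2 in all 4 lists. This order over all loops in 4 lists was not calculated.

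How often loops with a value of at least 2 recur between the whole lists was not calculated, so the next numbers are only a description. Of the 24 partners with a value of at least 2 in FOXA1 liver mets, 16 were in the FOXA1 tumor list at any value and 7 at a value of at least 2. The 5 in no other list, named after their values were seen, were a promoter anchor of Snhg20 (754 kb, value 6.37), an exonic anchor of Cant1, a nucleotidase gene (581 kb, 5.95), an anchor outside genes next to Lgals3bp (553 kb, 3.65), a promoter anchor of Sept9 (519 kb, 3.54) and an anchor outside genes next to Socs3 (150 kb, 2.12). The 5 longest partners found in FOXA1 liver mets and no other list were a promoter anchor of Rptor, a partner of the mTOR kinase, at 1988 kb, an intron of the polarity gene Llgl2 at 1988 kb, an exon of Myo15b at 1958 kb, an intron of Rptor at 1881 kb and an exon of Sap30bp at 1870 kb, each at the tied value of 1.87.

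The highest value of the Socs3 anchor was with an interval without genes in every list but FOXA1 tumor. This anchor of 13156 bp at chr11:117929575-117942730 lay 30.4 kb away. It had the ceiling value of 20 in FOXA1 liver mets and both HNF4G lists, but 1.77 in FOXA1 tumor. In FOXA1 tumor the highest value was 7.73, with the shared Tk1 and Afmid anchor. An intergenic anchor 397 kb away next to Timp2, an inhibitor of metalloproteinases, was joined with values of 13.4 in FOXA1 liver mets and 8.53 in HNF4G tumor alone. A loop to a promoter anchor of Cyth1, an exchange factor for ARF proteins, spanned 246 kb with values of 2.88 for FOXA1 and 7.97 for HNF4G in liver mets, and was in neither tumor list. Pgs1, at 43.3 kb, had values of 2.13 and 0.359 in liver mets and tumor for FOXA1, and 8.82 and 5.93 for HNF4G. Loops to C1qtnf1 at 465 kb (3.4 and 5.91) and Cep295nl at 380 kb (5.37 and 3.43) were in FOXA1 liver mets and FOXA1 tumor but in neither HNF4G list. Of the 16 partners in all 4 lists, FOXA1 liver mets had the higher value at 10 and FOXA1 tumor at 6. For HNF4G, 8 of the 16 were higher in liver mets, 7 were lower and the remaining 1, the interval without genes, was at the ceiling in both lists. The same value may stand for different evidence in different lists, and this order over all loops in 4 lists was not calculated.

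The members were also joined to each other. Of the 15 possible pairs of the 6 anchors, 11 were listed in liver mets and 10 in tumor for FOXA1. For HNF4G 10 and 8 were listed, and 5 pairs were in all lists. The listed pairs spanned at most 151 kb. Of all chromosome 11 pairs, 63.8% below 20 kb were listed in FOXA1 liver mets. Between 20 and 100 kb this share was 47.0% and between 100 and 200 kb 27.0%, with smaller shares in the other lists. The number of joined member pairs was not tested. The loop between the shared Tk1 and Afmid anchor and Socs3, of 140 kb, was among those in all lists. Its values were 4.87 in liver mets and 7.73 in tumor for FOXA1, and 4.54 and 8.44 for HNF4G. It was the only member pair above a value of 2 in all 4 lists, and its value was higher in tumor than in liver mets for both factors. The Birc5 anchors were joined to the shared anchor in all lists over 19.7 and 22.8 kb, with values between 0.765 and 2.45. Each Birc5 anchor was joined to Socs3 in 3 lists, the first missing from HNF4G tumor and the second from FOXA1 tumor, with values up to 3.84. The highest values of the Birc5 anchors were otherwise with Pgs1, at 4.68 in HNF4G tumor and 2.91 in HNF4G liver mets, and with the anchor at the far end of Afmid, at 2.06 in FOXA1 liver mets. For the anchors at internal Tk1 starts, the strongest FOXA1 loops outside the members were each in 1 of the FOXA1 lists. In liver mets they reached an interval without genes at 219 kb (value 4.55) and a promoter anchor of Snhg20 at 735 kb (3.69), and in tumor an intron of Sept9 at 573 kb (3.71).

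Partners were shared among members as well. In FOXA1 liver mets, 37 partner anchors outside the members joined both the shared Tk1 and Afmid anchor and Socs3, which is 49.3% of the 75 of the first and 55.2% of the 67 of the second. FOXA1 tumor had 17 such partners (38.6% and 45.9%), and HNF4G had 8 in liver mets (27.6% and 24.2%) and 21 in tumor (51.2% and 45.7%). Of the 32 such partners of Birc5 in FOXA1 liver mets, 23 were also partners of the shared anchor. The shared anchor and Socs3 lie 140 kb apart, so their neighborhoods overlap. Within 2 Mb they had 223 and 217 possible partners, of which 35.9% and 32.7% were listed in FOXA1 liver mets. Common partners can thus occur through this overlap alone, and more of them where both anchors have more loops. The number expected in this way was not calculated, so the sharing was not tested.

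Promoters made up about as large a share of partners here as elsewhere. For the shared anchor, 53.8% of partners in liver mets and 55.1% in tumor were promoter anchors for FOXA1, and 55.9% and 65.2% for HNF4G. Over all promoter anchors the shares were 54.7% and 55.9% for FOXA1 and 57.1% and 59.1% for HNF4G, each within the Wilson 95% interval of the shared anchor's share.

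The FOXA1 core motif had 1 match at the shared anchor, too few to set its density against that of all anchors. TGTTTAC, searched on both strands, occurred 1 time in the shared Tk1 and Afmid anchor, or 0.102 per kb, 2 times in the Socs3 anchor (0.230 per kb) and 0 times in the other 4 member anchors. Over all anchors the density was 0.179 per kb and over those of chromosome 11 it was 0.151 per kb, and 36.6% of anchors held a match. The 80 partners of the shared anchor in FOXA1 liver mets had 31 matches (0.0973 per kb), and the 49 in FOXA1 tumor had 16 (0.0808 per kb). Its HNF4G partners had 0.136 per kb in liver mets and 0.112 per kb in tumor. The 112 anchors within 2 Mb that were never listed as its partner had 0.122 per kb. The partners had a GC content of 53.2% in FOXA1 liver mets and the anchors of all lists 48.6%, and its part in the motif density was not tested. The HNF4 motif CAAAGTCCA was in none of the 6 member anchors and in 4.40% of all anchors. The 60-base windows with the FOXA1 core or its reverse complement in capitals are shown, plus strand, at chr11:117827426-117827485 for the shared anchor, at chr11:117970388-117970447 for Socs3 and at chr11:118360714-118360773 for the anchor next to Timp2, which also had 2 matches.
Tk1 and Afmid anchor: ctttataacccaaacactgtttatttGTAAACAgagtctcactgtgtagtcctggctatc
Socs3 anchor: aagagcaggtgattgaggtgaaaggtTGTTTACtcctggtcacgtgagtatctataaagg
Anchor next to Timp2: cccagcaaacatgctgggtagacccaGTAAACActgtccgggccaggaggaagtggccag

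Neighboring genes within 250 kb of the Tk1 start had FOXA1 ratios on either side of 1. Pgs1 had 98 loops in FOXA1 liver mets and 65 in FOXA1 tumor, Tnrc6c 51 and 36, Syngr2 50 and 35, and Tha1, a threonine aldolase gene, 29 and 24. The readthrough gene Gm20708 had 25 and 21. Tmc8 had 64 and 66, and Tmc6 had 33 and 36. No anchor lay near 6030468B19Rik or Tmem235. For HNF4G, Tha1 had more loops in liver mets than in tumor (20 against 16), whereas Pgs1 (51 against 59), Tnrc6c (31 against 34), Syngr2 (30 against 37), Tmc8 (44 against 49), Gm20708 (14 against 19) and Tmc6 (18 against 23) had fewer. The anchors nearest in loop numbers to the shared anchor over the 4 lists were those of Neat1 on chromosome 19 (78 and 58 FOXA1 loops in liver mets and tumor, 39 and 50 HNF4G loops), Socs3, and C1qtnf1 (67 and 55, 37 and 52). Their largest differences from it over the 4 lists were 0.24, 0.25 and 0.25 on the log2(number + 1) scale.

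Most other genes of the members' pathways had fewer loops than the members. Of 14 genes of thymidine and dTTP supply, 12 had a loop and 6 had at least 10 FOXA1 loops. Of these 6, 4 had at least 1.5 times as many in liver mets, against 25.4% of all genes: Tk1, which was part of the choice of members, Shmt1 (9 against 2), Shmt2 (11 against 6), which make the folate units for thymidylate, and Rrm2 (10 against 5), a ribonucleotide reductase subunit. Of the kynurenine genes, 3 of 10 had a loop, Afmid, Ido2 (17 against 14) and Acmsd (3 against 4). In the chromosomal passenger complex and the inhibitor of apoptosis family, 7 of 9 genes had a loop. Of the 4 with at least 10 FOXA1 loops, Incenp passed 1.5 times higher in liver mets, Birc6 passed 1.5 times lower (4 against 7), and Aurkb (10 against 10) and Birc5 passed neither. Incenp, the scaffold of that complex, had 43 and 18 FOXA1 loops in liver mets and tumor, and 27 and 26 HNF4G loops. Of 22 SOCS and JAK-STAT genes, 19 had a loop and 15 had at least 10 FOXA1 loops, of which Socs3 and the kinase gene Tyk2 (6 against 4) passed 1.5 times higher and Stat2 (5 against 8) passed 1.5 times lower in liver mets, with Socs3 itself a chosen member. The median FOXA1 ratios of the 4 groups were 1.71, 1.42, 1.11 and 1.20, against 1.17 over all genes, and the lists were not tested.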

How the data were processed

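Hi-ChIP loops were analysed for 4 groups of 2 replicates each, assigned from the sample titles. The authors aligned paired reads to mm10 with HiC-Pro 3.1.0, named in the submitters' processing notes, at default settings, with duplicates removed and reads assigned to DpnII fragments, and then ran hichipper. The source of the anchors, the minimum of read pairs and how replicates were joined were not given in the sources used here. The value deposited by the authors for each loop had no name and was taken as the −log10 of an adjusted p from its tied runs and its ceiling of 20. A display score, also deposited by the authors, repeats its whole part and was not used. The same value may stand for different evidence in different lists.

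Starts came from GENCODE M21, sequences from RefSeq on GRCm38.p6, whose chromosomes hold all anchors, and promoter windows (250 bases before to 50 after the start) were found for 4 of 4 members. Loops at an anchor were counted per list, with Wilson 95% intervals for shares and exact 95% intervals for ratios of loop numbers. Python 3.11.15, pandas 2.3.3 and scipy 1.17.1 were used, and counting functions were tested on simulated loops. No test between groups was possible from single lists. Members, gene lists and the rule for named loops (the 3 highest values per anchor and list, the 5 longest partners in all 4 lists and the 5 longest in FOXA1 liver mets alone, loops between members, the 3 anchors nearest in loop numbers, coding genes within 250 kb and 4 pathway lists) were chosen with earlier results of these data known.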

Additional observations from a re-analysis of the deposited data

Results flagged for a closer look

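The ratio of loop numbers between liver mets and tumor lay on opposite sides of 1 for the 2 factors at all 3 promoters. It was 1.63 for FOXA1 and 0.739 for HNF4G at the shared Tk1 and Afmid anchor, 1.73 and 0.776 at Socs3, and 1.22 and 0.96 at Birc5. The anchors at internal Tk1 starts did not share this order, with ratios of 1.5 for FOXA1 and 1.10 for HNF4G. Each group had 1 list, so the difference between factors was not tested, and the HNF4G ratio of Birc5 rests on 24 against 25 loops. Over all loops the lists had ratios of 1.21 for FOXA1 and 1.02 for HNF4G. Wide anchors had the same opposite order, with ratios of summed loop numbers of 1.26 and 0.945 over the 162 anchors of 8 to 10 kb, the class of the Tk1 and Afmid and the Socs3 anchors, and of 1.23 and 0.991 over the 2719 anchors of 4 to 6 kb.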

How the results depend on the processing

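Of 65 recomputed values, 54 stayed within the counting interval of the reported value, which is wide for medians of few loops, 10 moved beyond it and 1 changed direction. The ratios at the Tk1 and Afmid anchor and at Socs3 kept their direction under every alternative run (value of at least 2, span of at least 20 kb, other distances to the start, division by list size and, chosen after seeing the data, removal of tied loops), at 1.35 to 1.71 and 1.44 to 2.56 for FOXA1 and at 0.707 to 0.9 and 0.758 to 0.97 for HNF4G. The HNF4G ratios nearest to 1 rest on 9 against 10 loops at a value of at least 2 (Tk1 and Afmid) and 32 against 33 without tied loops (Socs3). The HNF4G ratio of Birc5 turned to 1.5 at a value of at least 2, where 3 and 2 loops were left. The FOXA1 ratio of Birc5 had no value there, with 2 and 0 loops. At that limit the median span at the Tk1 and Afmid anchor fell to 264 kb in liver mets and 157 kb in tumor for FOXA1 and to 131 kb in tumor for HNF4G, and without tied loops to 260 kb in FOXA1 liver mets. For spans of at least 20 kb the HNF4G median rose from 199 to 501 kb in liver mets and from 223 to 292 kb in tumor, which turned their order, and the FOXA1 liver mets median was 541 kb. The share of FOXA1 liver mets loops with the same partner in FOXA1 tumor was 29.2% at a value of at least 2 in both lists and 56.2% with partner anchors widened by 5 kb. Neither setting was run over all loops of the lists. Within 500 kb, 63.6% of possible partners in liver mets and 56.4% in tumor were listed for FOXA1, and 34.5% and 54.5% for HNF4G. No paired analysis was possible because each list joins both replicates and holds no value per replicate. For the same reason no replicate could be left out. Depth per list was not analysed here, so a loop missing from a list may lie under its detection limit.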
